A study of Homo sapiens with 6 samples.

Results

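The kinetochore is the protein assembly that builds on each centromere and holds the chromosome to the microtubules of the mitotic spindle. Its inner layer rests on nucleosomes that carry the histone variant CENP-A, its outer layer grips microtubules, and the spindle checkpoint proteins that gather on unattached kinetochores delay anaphase by blocking the anaphase promoting complex (APC/C). The mRNAs of many of these proteins are made in late S phase and G2, so that dividing cells hold them and resting cells hold few. Here, 43 such mRNAs were followed in an ORC1 RNA immunoprecipitation. They were chosen by gene symbol, as centromere proteins, outer kinetochore complexes, checkpoint proteins and the chromosomal passenger complex. This rule uses no measured value, although the list was drawn up with earlier results of these data known. All 43 were found among the 23013 genes of the table, and all 43 passed the filter on low values, a mean of at least 10 normalised counts over the libraries, that left 16513 genes for testing. The lowest of them had a mean of 157 normalised counts.

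The libraries came from native RIP-seq, in which a protein is pulled from an uncrosslinked lysate with an antibody and the RNA that comes with it is sequenced. The lysate was from nuclei of untreated, asynchronous HCT116 cells, an epithelial colorectal cancer line, and the protein was endogenous ORC1, the largest of the proteins that together form the origin recognition complex and mark where DNA replication starts. There were 3 input libraries of nuclear RNA and 3 ORC1 IP libraries, numbered as RIP replicates 1, 2 and 3, and the question put to them was which nuclear RNAs come down with ORC1. The study states that its control IgG brought down no detectable RNA. No library of a control antibody was analysed here, so that no background per gene is given. In nuclear RNA pooled from an asynchronous culture, a larger share of cells in G2 and more RNA per cell cannot be told apart.

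The libraries held 13703033 to 17248924 recovered reads in the inputs and 25134156 to 36008733 in the ORC1 IPs. ORC1 IP 2 stood apart from the other ORC1 IPs. Mitochondrial genes took 5.995% of its counts, against 0.617% and 0.257% in ORC1 IPs 1 and 3 and 1.49% to 3.28% in the inputs. The 6 epithelial markers that were looked up (EPCAM, KRT8, KRT18, KRT19, CDH1 and CLDN7) were present in every library, but their summed normalised count was 17298 in ORC1 IP 2 against 49066 to 146127 elsewhere. The nuclear RNAs MALAT1 and NEAT1 summed to 120924 normalised counts in ORC1 IP 2 against 12106 to 39471 in the remaining 5 libraries. Of the markers of other cell types that were found, CD14 (blood) had 0 to 5.81 normalised counts, VWF (endothelium) 7.88 to 37.3 and COL1A1 (fibroblasts) 161 to 787. Among the 43 mRNAs, 27 had their lowest ORC1 IP value in ORC1 IP 2, and 24 had their lowest input value in input 3. Results are therefore given with and without these libraries where they decide a call. What part the makeup of ORC1 IP 2 had in any result was not tested.

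GAA triplets were counted along these mRNAs because of earlier results of the study. It found tandem GAA repeats enriched in the RNAs of this RIP, and then depleted RNAs with such repeats by antisense oligonucleotides. GAA content beside the log2 fold change is thus a description of a feature found in these same data. From crosslink positions and gel shift assays, the study concluded that ORC1 does not bind RNA through these repeats. The stretches of 60 nt within 1 coding exon that held the most GAA are shown, with each GAA in capitals, for the 8 mRNAs that were higher in the ORC1 IP by the study's threshold (log2 fold change past 1, unadjusted p under 0.05) and for CDCA8, which did not pass it and held the longest tandem run. Sequences are those of GENCODE v44 on GRCh38, 5′ to 3′ in the sense of the mRNA and with T for U.
CENPE exon 16, chr4:103174788-103174847, minus strand, 9 GAA: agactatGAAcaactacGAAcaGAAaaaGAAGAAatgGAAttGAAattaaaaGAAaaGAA
CENPF exon 12, chr1:214640154-214640213, plus strand, 9 GAA: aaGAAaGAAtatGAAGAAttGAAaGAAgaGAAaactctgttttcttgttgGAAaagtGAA
CASC5 exon 10, chr15:40623158-40623217, plus strand, 6 GAA: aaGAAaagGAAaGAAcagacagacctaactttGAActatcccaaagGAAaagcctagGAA
NUF2 exon 12, chr1:163347801-163347860, plus strand, 8 GAA: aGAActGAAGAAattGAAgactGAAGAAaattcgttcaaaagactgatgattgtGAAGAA
CENPK exon 3, chr5:65554797-65554856, minus strand, 9 GAA: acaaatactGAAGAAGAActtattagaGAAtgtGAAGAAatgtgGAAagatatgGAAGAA
KNTC1 exon 33, chr12:122580603-122580662, plus strand, 6 GAA: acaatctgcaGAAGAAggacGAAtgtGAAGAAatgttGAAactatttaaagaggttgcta
NDC80 exon 14, chr18:2606415-2606474, plus strand, 7 GAA: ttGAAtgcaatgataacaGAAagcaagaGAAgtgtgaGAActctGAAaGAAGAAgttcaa
HJURP exon 8, chr2:233841031-233841090, minus strand, 6 GAA: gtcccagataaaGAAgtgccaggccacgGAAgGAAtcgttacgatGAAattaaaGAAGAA
CDCA8 exon 5, chr1:37700438-37700497, plus strand, 9 GAA: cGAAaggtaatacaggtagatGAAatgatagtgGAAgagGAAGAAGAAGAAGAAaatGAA

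The same search gave these densest stretches in the 5 mRNAs that were lower at that threshold, again with GAA in capitals.
OIP5 exon 5, chr15:41309790-41309849, minus strand, 3 GAA: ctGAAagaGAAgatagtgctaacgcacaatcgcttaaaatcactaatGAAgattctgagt
MAD2L1 exon 3, chr4:120062022-120062081, minus strand, 3 GAA: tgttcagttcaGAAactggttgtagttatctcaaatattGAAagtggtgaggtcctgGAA
PMF1 exon 3, chr1:156233643-156233702, plus strand, 5 GAA: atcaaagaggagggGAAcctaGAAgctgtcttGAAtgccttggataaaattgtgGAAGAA
CENPL exon 3, chr1:173811157-173811216, minus strand, 5 GAA: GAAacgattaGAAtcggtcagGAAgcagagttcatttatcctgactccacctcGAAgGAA
CENPM exon 3, chr22:41945946-41946005, minus strand, 2 GAA: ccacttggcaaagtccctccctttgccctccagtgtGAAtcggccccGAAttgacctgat

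The densest stretches held 6 to 9 GAA (median 7.5) in the 8 higher mRNAs, 9 in CENPE, CENPF and CENPK and 6 in CASC5, KNTC1 and HJURP. They held 2 to 5 (median 3.0) in the 5 lower ones, with 5 in PMF1 and CENPL. Over the 30 mRNAs past the threshold in neither direction the count ran from 3 to 9 (median 5.0), so that it overlapped with both sets, and the CDCA8 stretch contained 5 GAA in tandem. A longer coding sequence offers more stretches to search, and the counts were not corrected for that.

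Across all 43 mRNAs, 2 had higher counts in the ORC1 IP than in the input with a limma adjusted p under 0.05 (by the Benjamini-Hochberg method over all tested genes), CENPE and CENPF, which is 4.65% against 2.28% of all tested genes. OIP5 was lower, which is 1 of 43 or 2.33% against 1.42%. At the less strict threshold that the study used for its RIP list, given above, 8 were higher (CENPE, CENPF, CASC5, NUF2, CENPK, KNTC1, NDC80 and HJURP), 18.6% against 10.9% of all genes, and 5 were lower (OIP5, MAD2L1, PMF1, CENPL and CENPM), 11.6% against 7.25%. With scaling by total count these became 7 higher and 7 lower (16.3% each, against 6.55% and 9.24% of all genes). At an unadjusted p under 0.05 alone, 8 of the 43 were higher and 7 lower, 18.6% against 12.2% and 16.3% against 9.45% of all genes. DESeq2 on recovered reads made 8 calls in the higher and 3 in the lower direction (adjusted p under 0.05), 18.6% against 7.67% and 6.98% against 4.35%, and edgeR on these reads called CENPE and CENPF higher and OIP5 lower, against 2.57% and 1.31%. The counts by role below, of 3 to 11 mRNAs each, are to be read against these shares. The log2 fold changes ran from -1.64 to 3.58, 23 above 0 and 20 below, with a median of 0.12 beside 0.01 for all tested genes, and of -0.0989 beside -0.19 with scaling by total count. These mRNAs were thus spread to both sides, with a few far out.

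**Figure D1:**
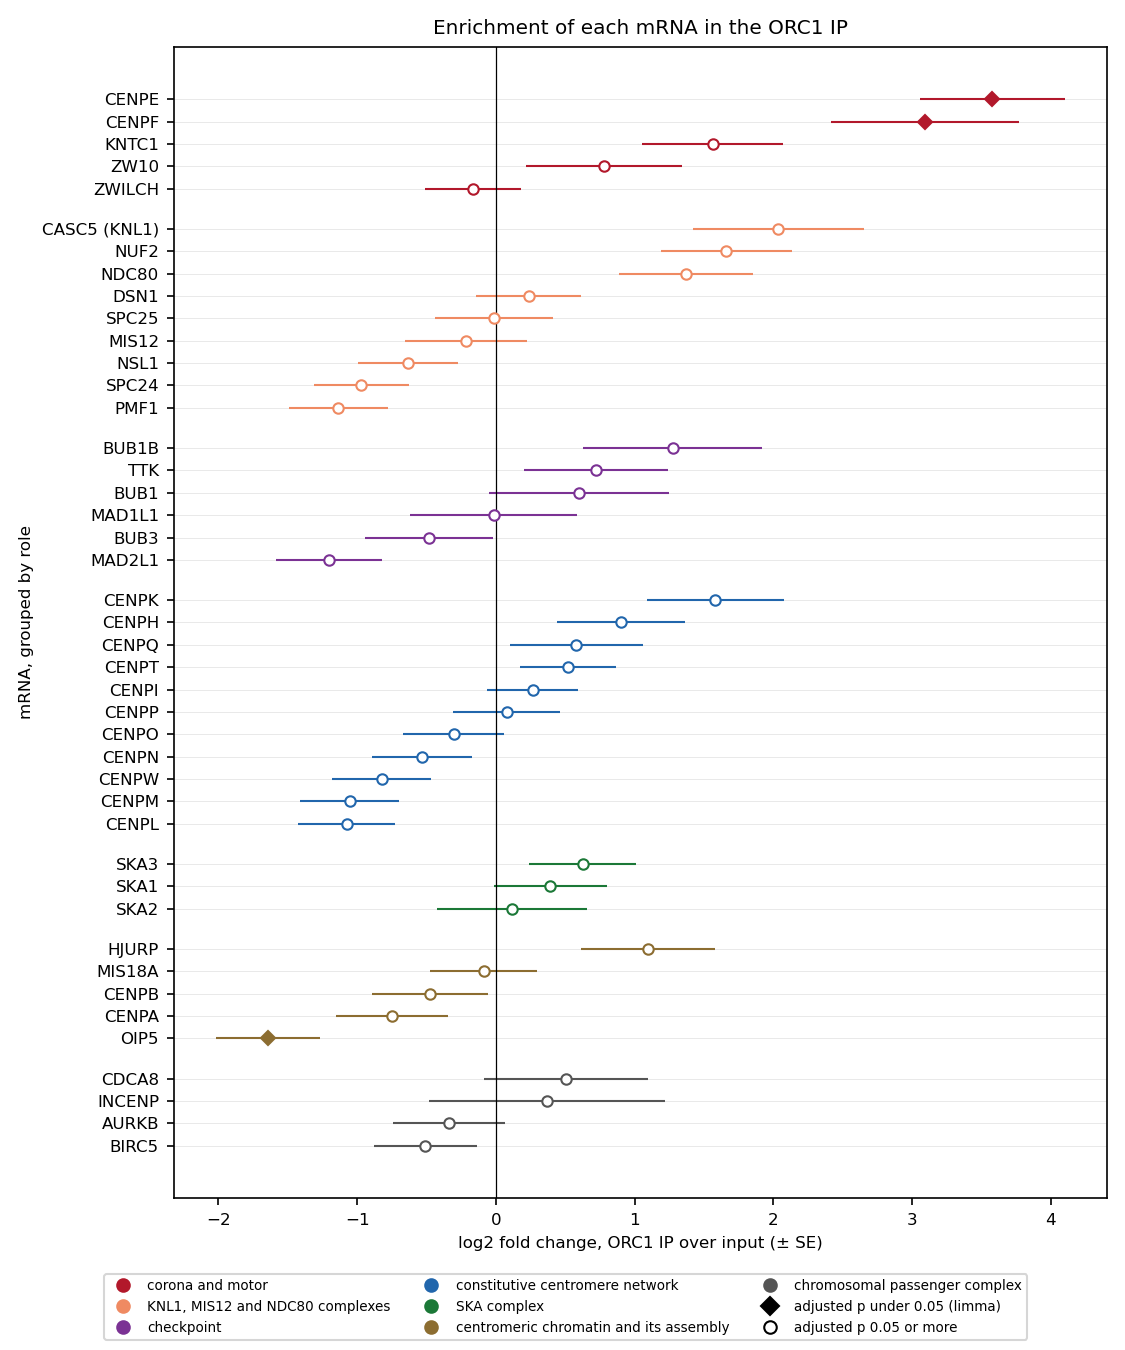
Log2 fold change of ORC1 IP over input (x axis, ± SE of the limma fit, 3 libraries against 3) for the 43 mRNAs, grouped and coloured by role; filled diamonds mark an adjusted p under 0.05 and open circles the rest. CENPE at 3.58 and CENPF at 3.10 lie furthest to the right, OIP5 at -1.64 furthest to the left, and every group but the SKA complex has values on both sides of 0.

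Corona and motor proteins form the outermost fibrous layer of an unattached kinetochore. Of their 5 mRNAs, 2 were called higher, 40.0% against 2.28% of all genes. Both have a coding sequence of at least 6000 nt, a class in which 18.3% of all tested genes were called higher. CENPE (ENSG00000138778, chromosome 4, 103105349 to 103198445 on the minus strand of GRCh38) encodes a very large kinesin that carries chromosomes toward the spindle equator. Its mRNA had 1256, 537 and 247 normalised counts in the inputs, in the order of their numbers, against 7093, 5506 and 7294 in the corresponding ORC1 IPs. The lowest ORC1 IP was thus above the highest input, and the inputs differed among themselves far more than the ORC1 IPs did. The log2 fold change was 3.58 ± 0.52 (SE, n = 3 against 3, limma adjusted p = 0.00802), an 11.9-fold difference and rank 10 of all 16513 tested genes. With the replicate number as a block, the adjusted p was 0.00159. Leaving out 1 library at a time kept the call except without input 3, where the log2 fold change was 3.00 with an adjusted p of 0.0668. CENPE overlapped no other annotated gene and shared no 50-base stretch with one.

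The study designed RT-qPCR primers for CENPE, shown because they mark the stretch of the mRNA by which it can be followed outside a library. Both fell in coding sequence at the 3′ end of the mRNA, in the last exons of 49, and framed a product of 66 nt on the spliced transcript. Neither is in capitals, since no base is singled out.
CENPE forward primer, exon 48, chr4:103108804-103108824: tcaagtttaggcctttgtcca
CENPE reverse primer, exon 49, chr4:103106273-103106292: acctggctgagaatccacac

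CENPF (ENSG00000117724, chromosome 1, 214603185 to 214664574, plus strand) encodes a long coiled-coil protein that accumulates in G2 and binds the outer kinetochore and dynein regulators. Its mRNA had 8688, 4644 and 2408 normalised counts in the inputs and 39057, 34002 and 45714 in the ORC1 IPs. As with CENPE, no ORC1 IP reached down to an input, and input 3 was the lowest library. The log2 fold change was 3.10 ± 0.68 (SE, n = 3 against 3, limma adjusted p = 0.0308), an 8.55-fold difference. This call was less steady than that of CENPE. The replicate block gave an adjusted p of 0.0743 in limma and 0.118 in edgeR, and leaving out input 1, input 2, input 3 or ORC1 IP 3 gave 0.0508, 0.190, 0.346 and 0.0814, with log2 fold changes between 2.63 and 3.55. Without ORC1 IP 2 the adjusted p was 0.00109.

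The other 3 genes of this group make up the RZZ complex, which brings dynein and checkpoint proteins to the corona, and none of them passed the test. KNTC1, its largest subunit, had 1949.9, 3004 and 1653 normalised counts in the inputs and 6904, 3340.1 and 10874 in the ORC1 IPs, a log2 fold change of 1.56 ± 0.51 (limma adjusted p = 0.101). Its lowest ORC1 IP, number 2, lay just above its highest input, also number 2. ZWILCH had 898, 889 and 604 in the inputs and 569.9, 793 and 759 in the ORC1 IPs, a log2 fold change of -0.16 ± 0.34, and its groups overlapped. ZW10 lay between them at 0.78 ± 0.56 (adjusted p = 0.453). At the unadjusted threshold, CENPE, CENPF and KNTC1 were higher and no mRNA of the group was lower, and DESeq2 on recovered reads called the same 3.

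The KNL1, MIS12 and NDC80 complexes are the core of the outer kinetochore that touches the microtubule. Of their 9 mRNAs, limma and edgeR called 0 in either direction, 3 had an unadjusted p under 0.05 and were higher (CASC5, NUF2, NDC80; 33.3% against 12.2% of all genes), 2 were lower at that level (PMF1, SPC24; 22.2% against 9.45%), and DESeq2 called 3 higher (33.3% against 7.67%) and 1 lower (11.1% against 4.35%). CASC5, now named KNL1, encodes the scaffold that recruits BUB1 and BUB3. It had 2157, 2619 and 1206 normalised counts in the inputs and 11058, 2798 and 15191 in the ORC1 IPs, a log2 fold change of 2.04 ± 0.61 (limma adjusted p = 0.0819). ORC1 IP 2 was again close to the inputs while the other ORC1 IPs were several times above them, and without ORC1 IP 2 the adjusted p was 0.000843.

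NUF2 and NDC80 form the microtubule-binding end of the NDC80 complex, and SPC24 and SPC25 the end that anchors it to the inner kinetochore. NUF2 had 675, 307 and 236 normalised counts in the inputs and 1695, 646 and 1427 in the ORC1 IPs. Input 1 was above ORC1 IP 2, so the groups overlapped, although each ORC1 IP was above the input of its own number. The log2 fold change was 1.66 ± 0.47 (limma adjusted p = 0.0690), and NUF2 was called with the replicate block in limma (adjusted p = 0.0418) and in edgeR (0.0304), without input 1 (0.0446) and without ORC1 IP 2 (0.00452). NDC80 had 1255, 846 and 623 in the inputs and 4288, 1173 and 2269 in the ORC1 IPs, 1.37 ± 0.48 on the log2 scale (limma adjusted p = 0.121).

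SPC24 ran the other way, with 1150.1, 1464 and 1885 normalised counts in the inputs and 751, 735 and 764 in the ORC1 IPs, all below the lowest input. Its log2 fold change was -0.97 ± 0.34 (limma adjusted p = 0.124). The ratio of NUF2 to SPC24 within a library was -0.77, -2.25 and -2.99 on the log2 scale in the inputs and 1.17, -0.19 and 0.90 in the ORC1 IPs. This ratio is free of any scaling between libraries, and it did not overlap between the groups. The pair was picked as the extremes of the complex, so its difference of 2.63 is a description. SPC25 stood at -0.01 ± 0.42.

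The MIS12 complex joins the NDC80 complex to the centromere. PMF1 had 352, 435 and 569.8 normalised counts in the inputs and 218, 166 and 227 in the ORC1 IPs, a log2 fold change of -1.13 ± 0.36 (limma adjusted p = 0.0933). All its ORC1 IPs were below all its inputs, but 51.5% of the 50-base stretches of its transcript also occur in PMF1-BGLAP, a readthrough gene, and the counts of the pair are uncertain. DSN1, MIS12 and NSL1 had log2 fold changes of 0.24, -0.22 and -0.63, with adjusted p-values of 0.338 to 0.821.

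**Figure D2:**
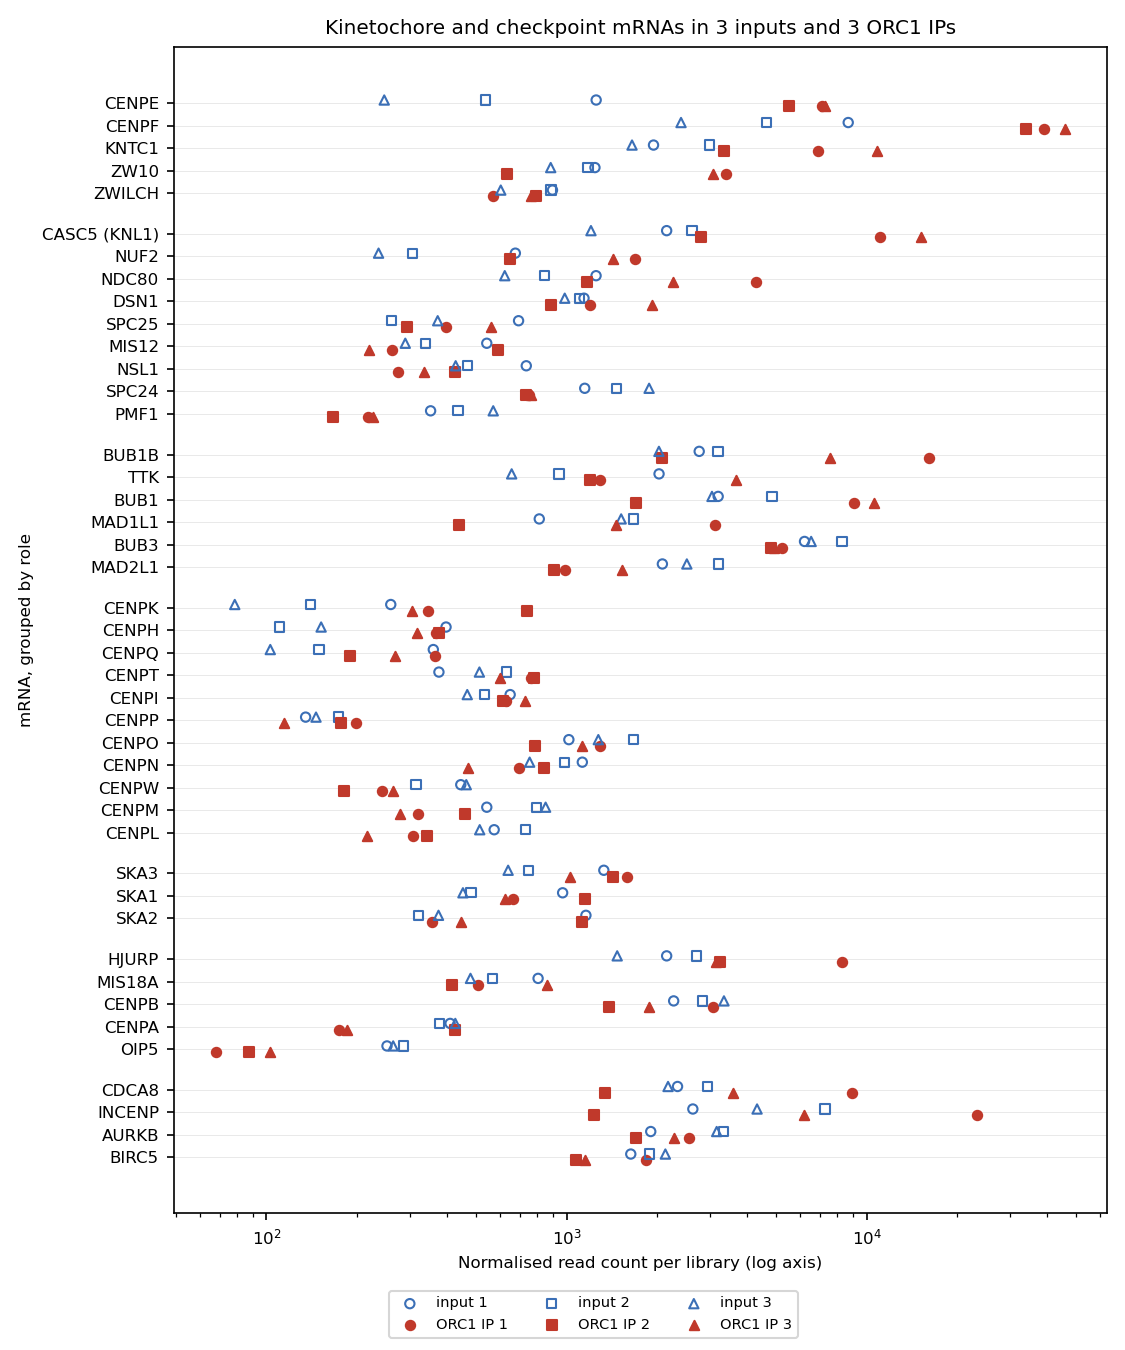
Normalised read count of the 43 mRNAs (x axis, log scale) in inputs 1 to 3 (open blue symbols) and ORC1 IPs 1 to 3 (filled red symbols), with circles, squares and triangles for replicates 1, 2 and 3. For CENPE and CENPF all red symbols lie to the right of all blue ones, for OIP5 and SPC24 to the left, and for CASC5, BUB1B and INCENP the red square of ORC1 IP 2 lies far to the left of the other red symbols.

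The spindle checkpoint kinases and their partners read attachment. In this group of 6, limma and edgeR called 0, 1 mRNA was lower at an unadjusted p under 0.05 (MAD2L1, 16.7% against 9.45% of all genes) and 0 were higher against 12.2%. DESeq2 called 1 higher (BUB1B, 16.7% against 7.67%) and 1 lower (MAD2L1, 16.7% against 4.35%). With 6 mRNAs, 1 call is the smallest count above 0. BUB1B encodes BUBR1, part of the complex that inhibits the APC/C. It had 2769, 3198 and 2033 normalised counts in the inputs and 16133, 2081 and 7579 in the ORC1 IPs, a log2 fold change of 1.27 ± 0.65 (limma adjusted p = 0.278). ORC1 IP 2 lay among the inputs and the other ORC1 IPs well above them, and without ORC1 IP 2 the log2 fold change was 2.08 with an adjusted p of 0.00334. BUB1B shares 8.18% of its 50-base stretches with BUB1B-PAK6 and PAK6.

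MAD2L1 encodes MAD2, which binds CDC20 to hold back anaphase. It had 2087, 3209 and 2518 normalised counts in the inputs and 990.2, 910.4 and 1534 in the ORC1 IPs, and the groups did not overlap. The log2 fold change was -1.20 ± 0.38 (limma adjusted p = 0.0939). The kinase BUB1 stood at 0.60 ± 0.65, the kinase TTK at 0.72 ± 0.52, BUB3, the partner of BUB1 and BUBR1, at -0.48 ± 0.46 and MAD1L1, the anchor of MAD2, at -0.02 ± 0.60. None of these 4 passed the test, and MAD1L1 shares 96.1% of its 50-base stretches with other annotated genes, so its counts are uncertain. For BUB1, replicates 1, 2 and 3 gave log2 ratios of 1.51, -1.51 and 1.80.

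The constitutive centromere network ties the outer kinetochore to CENP-A nucleosomes. Of its 11 mRNAs, limma and edgeR called 0, 1 was higher at an unadjusted p under 0.05 (CENPK, 9.09% against 12.2% of all genes) and 3 were lower (CENPL, CENPM and CENPW, 27.3% against 9.45%). DESeq2 called 1 higher (CENPK, 9.09% against 7.67%) and 0 lower. The share of higher mRNAs was thus at the level of all genes. CENPK had 259.6, 140.3 and 78.4 normalised counts in the inputs and 344, 739 and 306 in the ORC1 IPs, a log2 fold change of 1.58 ± 0.49 (limma adjusted p = 0.0897). Here ORC1 IP 2 was the highest library and not the lowest. CENPM, which sits in the same subcomplex as CENPK, had 542, 796 and 852 in the inputs and 320.1, 458 and 279 in the ORC1 IPs, a log2 fold change of -1.05 ± 0.36 (limma adjusted p = 0.112), with no overlap of the groups.

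CENPL, which binds the CENP-A nucleosome with CENPN, had 574, 729.7 and 514 normalised counts in the inputs and 309, 343 and 216 in the ORC1 IPs, also without overlap. Its log2 fold change was -1.08 ± 0.35 (limma adjusted p = 0.102), and its counts are less certain, since the strand setting of the counting is not stated. The subunits CENPH, CENPQ, CENPT, CENPI and CENPP had log2 fold changes of 0.90, 0.58, 0.52, 0.26 and 0.08, and CENPO, CENPN and CENPW of -0.31, -0.53 and -0.82. CENPT and CENPW, histone-fold partners that bind DNA as a pair, differed by 1.34, and their ratio did not overlap between the groups. CENPK and CENPM differed by 2.64, again with no overlap of the ratio. Both pairs hold the extremes of their subcomplex, a choice that favours a difference, so this is a description. The ratio of extremes also separated the groups in the MIS12 and RZZ complexes and for CENPL and CENPN. It overlapped in the SKA complex, in the chromosomal passenger complex and for CENPO, CENPP and CENPQ. How often such ratios separate over all genes was not computed.

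The SKA complex follows shrinking microtubule ends. SKA3 had 1332, 747 and 639 normalised counts in the inputs and 1596, 1428 and 1023 in the ORC1 IPs, a log2 fold change of 0.62 ± 0.39 (limma adjusted p = 0.377). SKA2 had 1161, 322 and 374 in the inputs and 356, 1124 and 444 in the ORC1 IPs, so that input 1 and ORC1 IP 2 were alike and stood above the remaining 4 libraries. Its log2 fold change was 0.12 ± 0.54, and that of SKA1 was 0.39 ± 0.41. None of the 3 had an unadjusted p under 0.05, and limma, edgeR and DESeq2 each called 0.

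Among the proteins of centromeric chromatin and its assembly, OIP5 (ENSG00000104147, chromosome 15, 41309273 to 41332591, minus strand) encodes MIS18β, which with MIS18A prepares the centromere for new CENP-A. Its mRNA had 252, 287 and 264 normalised counts in the inputs and 67.9, 87.7 and 103 in the ORC1 IPs. Both groups were tight, and the highest ORC1 IP was far below the lowest input. The log2 fold change was -1.64 ± 0.37 (SE, n = 3 against 3, limma adjusted p = 0.0352), 0.320 of the input level. With the replicate block the adjusted p was 0.0587 in limma and 0.0697 in edgeR, and of the leave-one-out fits it stayed under 0.05 only without ORC1 IP 2 (0.00830). Without input 1, 2 or 3 it was 0.0644, 0.167 and 0.230, and without ORC1 IP 1 or 3 it was 0.0866 and 0.0769, at log2 fold changes of -1.78 to -1.48. OIP5 overlaps NUSAP1 and OIP5-AS1 on the opposite strand, and the sources used here do not give whether reads were counted by strand.

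HJURP, the chaperone that deposits CENP-A, had 2157, 2715 and 1476 normalised counts in the inputs and 8261, 3255 and 3149 in the ORC1 IPs, with no overlap. The log2 fold change was 1.10 ± 0.48 (limma adjusted p = 0.207). CENPA itself stood at -0.75 ± 0.40 and MIS18A at -0.09 ± 0.38. CENPB, which binds a box in alpha satellite DNA and is the product of a gene without introns, stood at -0.48 ± 0.42. None of these 4 passed the test.

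The chromosomal passenger complex corrects wrong attachments through the kinase AURKB. No mRNA of its 4 had an unadjusted p under 0.05, and limma, edgeR and DESeq2 called 0. CDCA8, which encodes borealin, had 2345, 2952 and 2179.9 normalised counts in the inputs and 8952, 1339 and 3576 in the ORC1 IPs, a log2 fold change of 0.50 ± 0.59 (limma adjusted p = 0.672). BIRC5, which encodes survivin, had 1638, 1893 and 2135 in the inputs and 1847, 1077 and 1153 in the ORC1 IPs, -0.51 ± 0.37 on the log2 scale (limma adjusted p = 0.457). AURKB stood at -0.34 ± 0.40. INCENP, the scaffold of the complex, is named because its standard error was the largest of the 43, and it was chosen after its values were seen. It had 2637, 7276 and 4317 in the inputs and 23310.2, 1234 and 6167 in the ORC1 IPs, so that ORC1 IPs 1 and 2 were the highest and the lowest library, and its log2 fold change was 0.37 ± 0.85.

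Pairing of libraries by number gave the same picture of unequal replicates. In replicates 1, 2 and 3 the median log2 ratio of ORC1 IP to input over the 43 mRNAs was 0.06, -0.16 and 0.47. In all 3 replicates 11 mRNAs were above their input (25.6%, against 19.8% of all tested genes) and 10 were below (23.3%, against 19.2%), while 22 were mixed. Without regard to numbers, 6 mRNAs had all ORC1 IPs above all inputs (CENPE, CENPF, CASC5, CENPK, KNTC1 and HJURP), 14.0% against 12.7% of all genes. The opposite held for 9 (BUB3, NSL1, CENPW, SPC24, CENPM, CENPL, PMF1, MAD2L1 and OIP5), 20.9% against 13.5%.

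The number of calls rested on single libraries. Without ORC1 IP 2, 10 of the 43 were higher (CENPE, CENPF, CASC5, NUF2, BUB1B, KNTC1, NDC80, ZW10, BUB1 and HJURP), 23.3% against 11.9% of all genes, and 5 were lower (OIP5, CENPM, CENPL, CENPA and MAD2L1), 11.6% against 6.38%. Without input 3, limma called 0 of the 43 in either direction, against 0.0363% of all genes higher and 0.139% lower. At an unadjusted p under 0.05 and a log2 fold change past 1, 5 were still higher (CENPE, CENPF, CASC5, NUF2 and CENPK) (11.6%, against 6.66% of all genes) and 3 lower (OIP5, MAD2L1 and CENPL, 6.98% against 4.55%). With the replicate block, limma called CENPE and NUF2 higher, 4.65% against 2.62%, and none lower, against 1.16%.

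**Figure D3:**
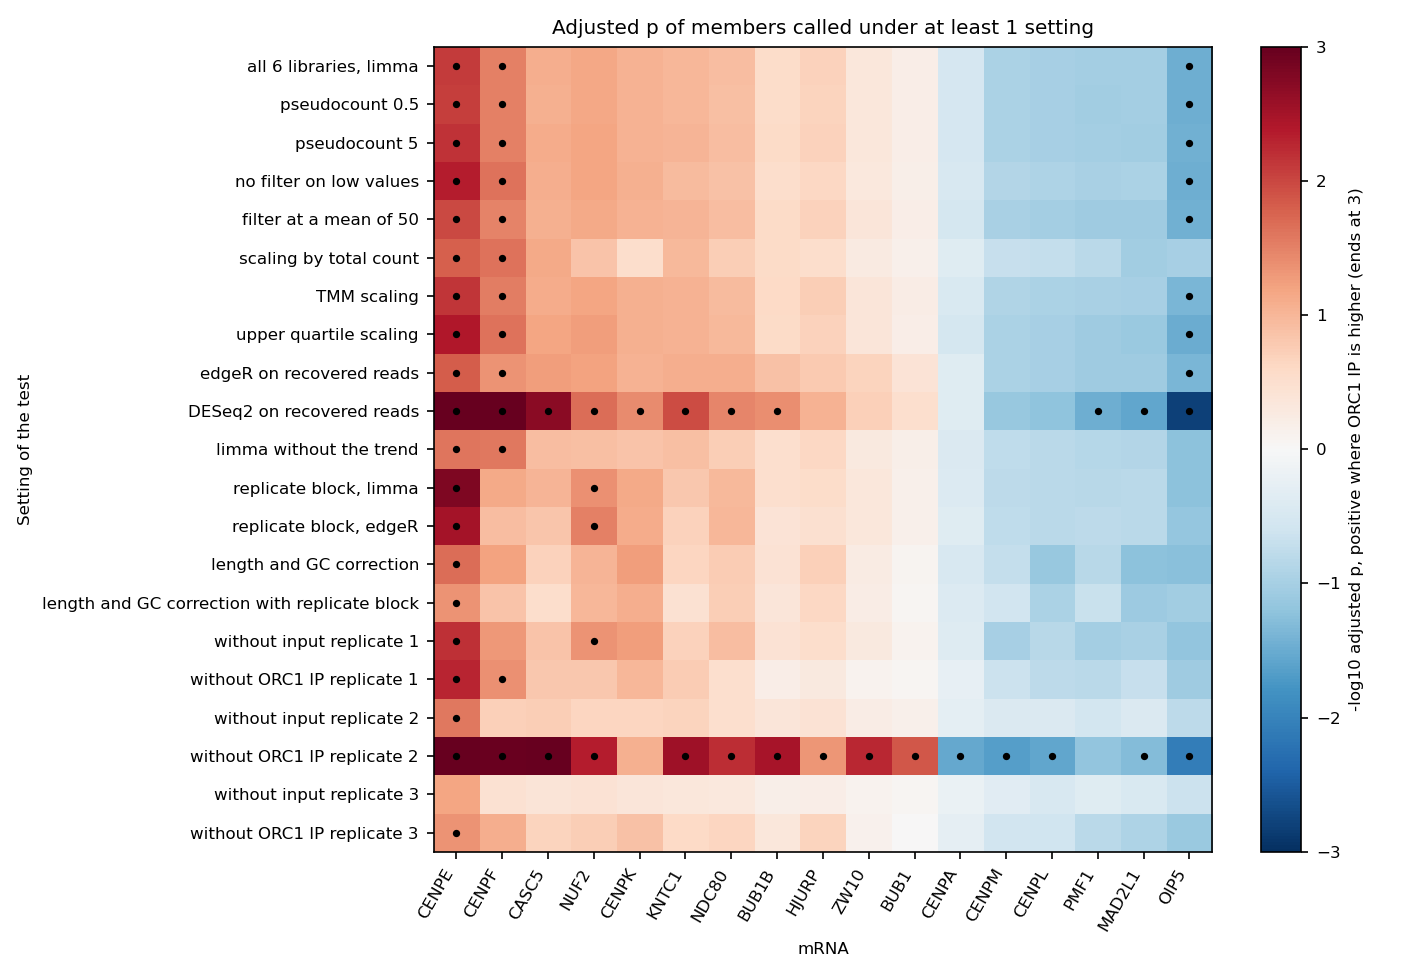
Adjusted p of the 17 mRNAs that were called under at least 1 of 21 settings of the test (rows), as -log10 with a positive sign and red where the ORC1 IP was higher and a negative sign and blue where it was lower; dots mark an adjusted p under 0.05 and the colour scale ends at 3. CENPE carries a dot in 20 settings, CENPF in 13, OIP5 in 10 and NUF2 in 5, and the rows of DESeq2 and of the fit without ORC1 IP 2 hold the most dots.

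As a share of the whole library, the 43 mRNAs took 0.350%, 0.325% and 0.277% of the counts in inputs 1, 2 and 3 and 0.563%, 0.570% and 0.546% in the ORC1 IPs. The groups did not overlap. CENPE and CENPF accounted for much of this, with 0.0546%, 0.0240% and 0.0138% in the inputs and 0.153%, 0.271% and 0.198% in the ORC1 IPs. The other 41 took 0.295%, 0.301% and 0.263% in the inputs and 0.410%, 0.2997% and 0.349% in the ORC1 IPs, where ORC1 IP 2 was level with the inputs. CENPF alone made up 4.52% to 13.7% of the counts of the 43 in the inputs and 23.0% to 40.8% in the ORC1 IPs.

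Levels were compared between genes per 1000 nt of the canonical transcript. In the input, AURKB had the highest mean level, 2257 normalised counts per 1000 nt, followed by INCENP, CDCA8 and BUB1 at 1153, 1051 and 983. CENPP had the lowest at 18.3, and CENPE ranked 41 of 43 at 79.6. In the ORC1 IP, CENPF ranked first at 3848 per 1000 nt, up from rank 12 in the input at 510, and CENPE ranked 12 at 776. The mRNA with the largest log2 fold change was thus among the least abundant per length in the nuclear input.

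The length of the coding sequence moved with the log2 fold change. The 4 mRNAs with a coding sequence of at least 6000 nt were CENPE (8103 nt), CENPF (9342 nt), CASC5 (6948 nt) and KNTC1 (6627 nt), and they held ranks 1, 2, 3 and 6 by log2 fold change. Their median was 2.57, beside 1.25 for the 367 tested genes of that length, of which 18.3% were called higher. The 8 mRNAs of 2000 to 4000 nt had a median of 0.66, beside 0.41 for all such genes. The 10 mRNAs of 1000 to 2000 nt had 0.04 beside -0.04, and the 21 under 1000 nt had -0.31 beside -0.38. Of the 5 mRNAs lower at the threshold of the study, OIP5, MAD2L1, PMF1 and CENPM belonged to the shortest class, in which 2.54% of all genes were called lower and 0.21% higher, and CENPL, with 1032 nt, to the next. The shortest class also held CENPK, at a log2 fold change of 1.58. The order of the classes was therefore the same among these mRNAs and among all genes.

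Over the 43 mRNAs, coding length and log2 fold change had a Spearman rho of 0.677, beside 0.499 over 12537 tested genes with a coding transcript. Without the longest 2, CENPF and CENPE, it was 0.627 (n = 41). Per replicate it was 0.768, 0.101 and 0.682, so that replicate 2 hardly showed it. The whole transcript, which includes the UTRs, gave 0.305, beside 0.348 over 16062 genes. NSL1 had the longest transcript of the 43, 13115 nt, with a coding sequence of 843 nt and a log2 fold change of -0.63. The points share the same 6 libraries, and genes are not independent replicates, so no p is given.

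GAA content, a feature that the study found in the RNAs of this RIP, gave a similar order. GAA triplets per 1000 nt of transcript were 52.7 in CENPE, 47.6 in CENPF, 46.6 in NDC80, 39.2 in NUF2 and 35.2 in BUB1B, the highest 5 of the 43, and 10.5 in SPC24, the lowest. The median was 24.02, beside 20.4 over all tested genes with a transcript. CENPE, CENPF and NDC80 lay at percentiles 99.6, 99.2 and 99.0 of those genes. The Spearman rho of GAA content with the log2 fold change was 0.737 over the 43 mRNAs, beside 0.319 over all genes, and 0.379, 0.474 and 0.834 in replicates 1, 2 and 3. Among the 21 mRNAs with a coding sequence under 1000 nt it was 0.610. TTC, the reverse complement of GAA, gave -0.184 over the 43 and 0.00622 over all genes.

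**Figure D4:**
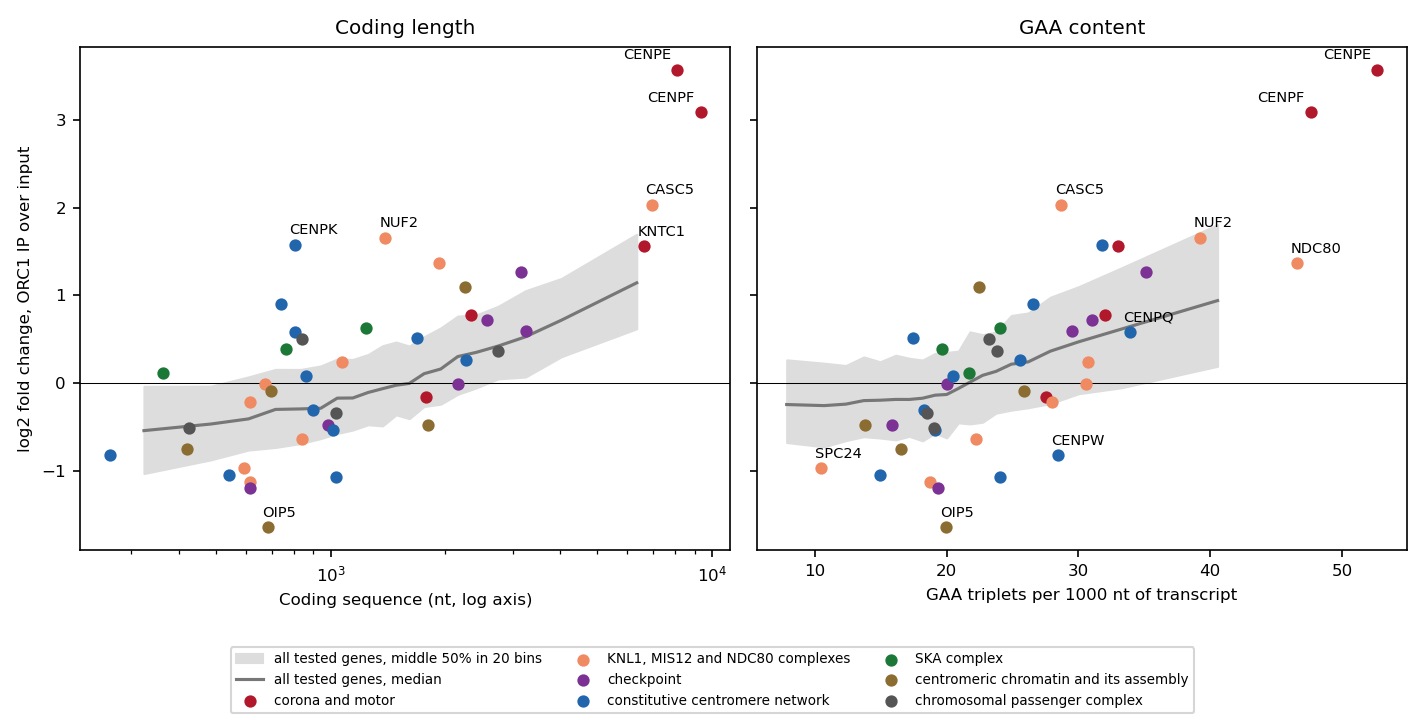
Log2 fold change of ORC1 IP over input (y axis) against coding length in nt on a log scale (left) and against GAA triplets per 1000 nt of transcript (right) for the 43 mRNAs, coloured by role; the grey line and band are the median and middle 50% of all tested genes in 20 bins. The band stops at the median of the last bin, 6345 nt on the left and 40.6 GAA per 1000 nt on the right. CENPE and CENPF lie to the right of this end in both panels, at log2 fold changes above its upper edge there (1.70 and 1.81). OIP5 lies below the band in both.

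These features were tied to each other among the 43 mRNAs, with a Spearman rho of 0.493 between GAA content and coding length and of -0.698 between GAA content and GC content. GC content and log2 fold change had a rho of -0.435, beside -0.185 over all genes, and 0.111, -0.603 and -0.557 in replicates 1, 2 and 3. After a correction of each library for transcript length and GC content, CENPE kept its call with a log2 fold change of 2.88 (limma adjusted p = 0.0206), whereas CENPF had 2.33 with 0.0617 and OIP5 -1.57 with 0.0550. The correction used the whole transcript, and neither coding length nor GAA content was corrected for. With this correction, 1 of 43 was called higher, 2.33% against 0.741% of all genes, and 0 lower against 0.336%.

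Tandem copies were searched for on the sense strand of the canonical transcripts. GAAGAA was found in 38 of the 43 mRNAs, 88.4% against 77.1% of all tested transcripts, and GAAGAAGAA in 10, 23.3% against 13.0%. The 10 were CENPF, CASC5, CENPK, NDC80, CENPQ, CENPT, CDCA8, INCENP, SPC25 and BUB3, with a median log2 fold change of 0.55 against -0.09 for the rest. Over all genes the medians were 0.61 with and -0.06 without this run. CENPE, richest in GAA per length, did not hold GAAGAAGAA. TTCTTCTTC, the run on the other strand, was in 0 of the 43 and in 4.28% of all transcripts. A match of letters is a description and says nothing of binding.

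Other kinetochore genes, which were not among the 43, were read in the same fit. Of 23, limma called 5 higher (adjusted p under 0.05) and 0 lower, with a median log2 fold change of 0.30, 21.7% higher against 2.28% of all tested genes. At an unadjusted p under 0.05, 8 were higher (34.8% against 12.2% of all genes) and 1 lower (MAD2L1BP, 4.35% against 9.45%). edgeR called 5 higher (21.7% against 2.57%) and DESeq2 6 (26.1% against 7.67%), and both called 0 lower. CENPC, the inner kinetochore protein that bridges CENP-A and the MIS12 complex, had 77.2 to 225 normalised counts in the inputs and 521 to 1147 in the ORC1 IPs, a log2 fold change of 2.61 ± 0.47 (limma adjusted p = 0.0150).

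SPDL1, which encodes spindly, the dynein adaptor that the RZZ complex recruits, had 167 to 815 normalised counts in the inputs and 1189 to 2350.0 in the ORC1 IPs, with a log2 fold change of 2.50 ± 0.54 (limma adjusted p = 0.0302). BOD1L1 and RSF1, a large relative of the phosphatase regulator BOD1 and a chromatin remodelling subunit, had log2 fold changes of 2.68 ± 0.49 and 2.25 ± 0.47 (limma adjusted p = 0.0171 and 0.0269). In all 5 genes called, 1 of which is not reported by name, the lowest ORC1 IP was above the highest input. The count moved with single libraries, as did that of all 16513 tested genes, of which 376 were called higher with all libraries. It was 0 without input 2, input 3 or ORC1 IP 3, where 48, 6 and 24 of all genes were called higher. It was 3 without ORC1 IP 1, 7 without input 1 and 6 without ORC1 IP 2, where 196, 403 and 1965 of all genes were.

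The APC/C is the ubiquitin ligase that the checkpoint holds back. Of its 15 genes, limma called 0, 1 was lower at an unadjusted p under 0.05 (ANAPC11, 6.67% against 9.45%) and 0 higher, and edgeR and DESeq2 also called 0. The median log2 fold change was -0.23. CDC20, the activator that MAD2 and BUBR1 bind, had 8477, 15628 and 12289 normalised counts in the inputs and 6758, 3473 and 6997 in the ORC1 IPs, with no overlap and a log2 fold change of -1.10 ± 0.55 (limma adjusted p = 0.273). ANAPC11 stood at -0.79 ± 0.35 and CDC16 at 0.74 ± 0.34. Without ORC1 IP 2, 1 APC/C gene was called lower, ANAPC16, at a log2 fold change of -1.36 (limma adjusted p = 0.0236).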

How the data were processed

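Native ORC1 RIP-seq of nuclear RNA was measured in 3 input and 3 ORC1 IP libraries of HCT116 cells, grouped by the labels. A stranded kit was used on DNase-treated total RNA after removal of rRNA. Per the labels and the study's methods, the authors used Trimmomatic for trimming, STAR for alignment to hg19 (GRCh37) with Ensembl annotation, featureCounts for gene counts after GL contigs had been discarded, and DESeq2 for the contrast with input. The study gives versions for part of these tools, which are not repeated here. How reads of several genes or of either strand were counted was not found in these sources. The deposited value per library is a signal, the gene count divided by 1 size factor per library. Each value was a whole multiple of what 1 read is worth within a tolerance of 0.001, for 100% of values, so whole reads were recovered. The deposited table also holds the authors' log2 fold change, its standard error and Wald score, and p-values, which were not used.

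Log2(normalised count + 1) of the 16513 genes whose mean over the 6 libraries reached 10 was tested with limma 3.58.1 (R 4.3.3, intensity trend, 3 against 3, no block) and Benjamini-Hochberg adjustment over all of them. Fold changes are on this scale, which understates those of low genes. edgeR 4.0.16 (quasi-likelihood test) and DESeq2 1.42.0 on recovered reads, other pseudocounts, filters and scalings, a replicate block, a correction for transcript length and GC content (natural splines with 4 degrees of freedom) and the omission of each library were alternatives. The fits were tested on simulated data. The study describes the ORC1 RIP as done in triplicate experiments. Whether each had its own culture is not stated, and p-values measure the spread between these libraries. Counting error is small at these depths, and without molecular identifiers amplified copies of 1 molecule are counted as separate reads.

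Members and gene lists were chosen with earlier results of these data known. Values in every library are given for members called, past the threshold of the study, or highest or lowest in their role, and from the other lists the called genes are named or, where fewer than 3 were called, the 3 with the largest absolute log2 fold change. The values of 1 called gene of these lists are not reported here. SPC24 and INCENP were added after their values were seen. The labels pair inputs and ORC1 IPs by RIP replicate number. The library titles also share a code within each pair. The fit without the block is the main one because the study names no block for its comparison with input. After subtraction of the group means, libraries of 1 number correlated at -0.322, -0.240 and 0.215 across genes for replicates 1, 2 and 3. With 3 libraries per group, such values cannot show whether a number is wrong, and their cause was not tested. Coordinates, exons and the Ensembl canonical transcripts are those of GENCODE v44 on GRCh38, joined through the Ensembl identifier for 16062 tested genes (97.3%), and no hg19 annotation was used.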

Additional observations from a re-analysis of the deposited data

How the results depend on the processing

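Of the 43 mRNAs, 2 were called higher and 1 lower. The count of higher calls became 8 with DESeq2, 1 after the length and GC correction and 1 with that correction and the replicate block, and ran from 0 to 10 when each library was left out in turn. Over all genes, 376 were called higher. This became 1266 with DESeq2, 119 and 60 under these corrections, and 6 to 1965 without each library. The count of lower calls became 3 with DESeq2 and 0 when scaled by total count, with no trend in limma, with the replicate block in limma or edgeR, and the length and GC correction with or without the block, and ran from 0 to 5 without each library. Over all genes, 234 were called lower, and 23 to 1053 without each library. Past the threshold of the study, 5 to 13 mRNAs were higher and 3 to 6 lower without each library. In these fits, 1100 to 2586 of all genes were higher and 752 to 1628 lower. Of the 23 other kinetochore genes, 3 were higher with total-count scaling, 3 with no trend in limma, 3 after the length and GC correction and 2 with that correction and the block, and 0 to 7 without each library, with 0 to 1 lower. With total-count scaling 88 of all genes were called higher, and with no trend in limma 143. The APC/C had 0 to 1 lower without each library. The cause of these moves was not tested. Over all tested genes, the median was 0.01 and became -0.19 with total-count scaling. The median of the 43 moved by less than the SD of the 3 replicate medians, 0.32, under every alternative.

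No mRNA called with all 6 libraries changed sign. Single mRNAs near 0 did, none of them called. CENPI became -0.24 under the length and GC correction with and without the block, SKA2 -0.10 with total-count scaling and -0.11 under both corrections, CENPP -0.14 and -0.39 likewise, SPC25 0.0303 with TMM, and MAD1L1 0.0278 with TMM, 0.32 in edgeR, 0.30 in DESeq2 and 0.10 under both corrections. Without each library, the log2 fold change ran from -0.17 to 1.19 for CDCA8, -0.66 to 1.46 for INCENP, -0.0639 to 0.49 for DSN1, -0.38 to 0.69 for SKA2, -0.0797 to 0.31 for CENPP, -0.33 to 0.37 for SPC25, -0.67 to 0.75 for MAD1L1, -0.39 to 0.13 for MIS18A and -0.65 to 0.0645 for MIS12.

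With the replicate block, CENPF and OIP5 lost their calls and NUF2 gained one (adjusted p = 0.0418 in limma), as given beside them, and no other of the 43 changed its call. Every one of the 43 had at least a mean of 157 normalised counts at these depths. The adjusted p of CENPE ran from 2.6e-07 to 0.0668 over 21 settings, and that of CENPF from 5.52e-07 to 0.346.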
